A study of Drosophila melanogaster with 6 samples.

Results

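The genes described here are 10 core genes of the insulin, Tor and Myc growth pathway of Drosophila melanogaster: InR, chico, Pi3K92E, Akt1, foxo, Thor, Tor, S6k, Rheb and Myc. They were picked by name from the 17493 genes of the count table, and all 10 were found and tested. Polyadenylated RNA came from 3 libraries of larval salivary glands (SG) and 3 of brains plus imaginal discs (B-D), all of the strain y1 w67c23, with no treatment or transgene named in any group, and within the study's 3 biological replicates both tissues came from the same larvae. Larvae hatched from 6 h egg collections, grew at 25 °C and were dissected in instar 3 while still feeding, 4 days after egg laying. Cells of the SG endocycle, replicating their genome without dividing, while mitotic cycles are common in B-D. The comparison here asks how transcripts of growth control differ between these tissues.

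In flies, insulin-like peptides bind the receptor InR, which acts through the adaptor Chico, the PI3 kinase Pi3K92E and the kinase Akt1. Akt1 keeps the transcription factor Foxo out of the nucleus and relieves the block of the Tuberous sclerosis proteins (Tsc1 and Gigas) on the GTPase Rheb, which then turns on the Tor kinase. Tor phosphorylates S6k, a kinase of ribosomal protein S6, and Thor, the fly 4E-BP, which holds back cap-dependent translation by binding eIF4E. Myc, a transcription factor, raises ribosome production and cell size. The pathway is best known in larvae for driving growth and endoreplication in fed animals, and Thor as a gene that Foxo turns on when nutrients are short. These proteins are controlled largely by phosphorylation and localization, which RNA levels do not report.

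Thor stood apart from the other genes. Its transcript was 17.6 times as abundant in SG as in B-D, whereas the other 9 genes lay between -0.13 and 0.95 on the log2 scale (SG over B-D, with libraries scaled by TMM, edgeR's trimmed mean of M values). Pi3K92E, foxo and Rheb were called higher in SG with TMM, but each was below 0 (-0.44, -0.14 and -0.29) under library size alone, and Thor was called higher under both. Calls required an edgeR adjusted p no greater than 0.05 together with a change of 0.5 or more on the log2 scale, up or down. By edgeR, 4 of the 10 genes were called higher and 0 lower with TMM, against 34.5% and 35.3% of the 11369 genes tested, so the share called higher was near the background (by DESeq2 also 4 and 0, against 34.6% and 35.8%). Under library size alone, 1 was higher and 6 were lower, against 14.0% and 62.5% of all genes. The median log2 fold change was 0.33 over the 10 genes and -0.03 over all genes tested with TMM, and the same medians were -0.77 and -1.13 under library size alone.

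Library totals ranged from 45023997 to 56583711 counts, and no library held fewer than 2011 counts of any of the 10 genes. Markers of other tissues were found in both groups. All 10 fat body markers were called higher in SG, where they took 19.0%, 16.0% and 13.4% of counts in replicates 1 to 3, against 0.172% to 0.710% in B-D, and their summed level was 192125 to 285855 CPM (counts relative to a TMM-scaled library total) in SG and 1174 to 4874 CPM in B-D. Salivary gland markers summed to 19368, 36027 and 92393 CPM in SG replicates 1 to 3 and to 297 to 921 CPM in B-D, with 9 of 15 called higher. Among them the glue gene Sgs3 was at 11.4, 2284 and 9449 CPM in SG replicates 1 to 3. In B-D it was at 0.242, 29.5 and 35.3 CPM. The marker fkh was at 215, 211 and 237 CPM in SG. Whether the replicates differed in stage was not tested. The 10 neuron markers, all called lower, summed to 252, 141 and 331 CPM in SG and to between 2514 and 3110 CPM in B-D, and the 10 imaginal disc markers, all called lower, to 32.7 to 51.8 CPM in SG and 237 to 241 CPM in B-D. None of these markers was at 0 in all libraries of a tissue. In such bulk samples fewer cells of a type and less RNA per cell cannot be told apart, and the part of admixed tissue in the results that follow was not tested.

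**Figure D1:**
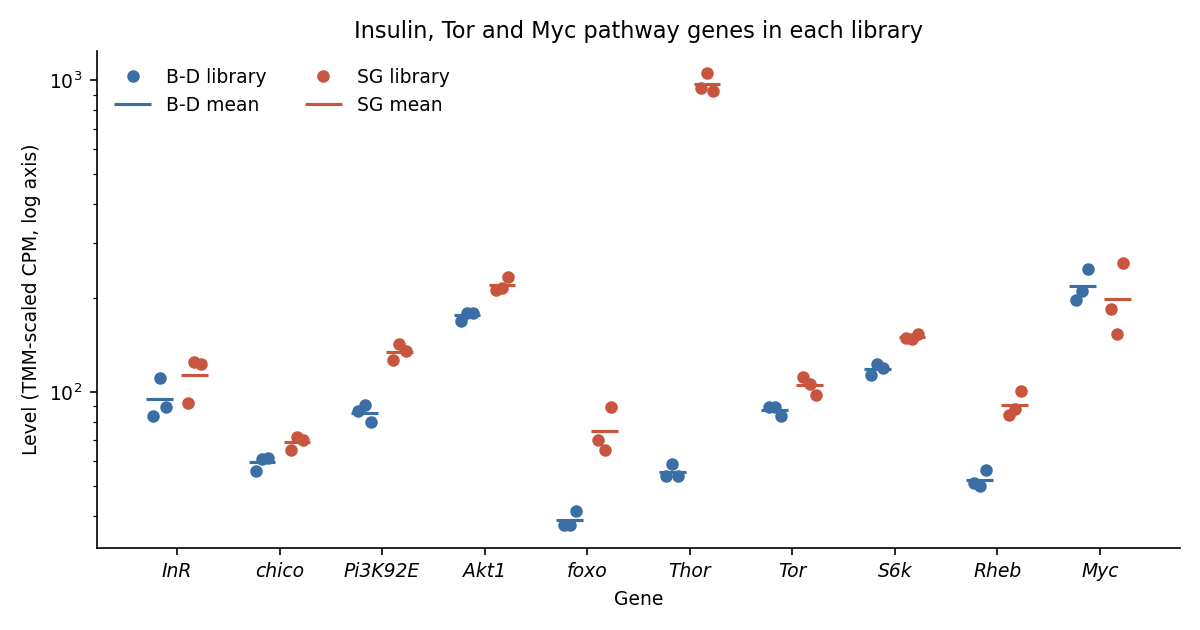
Level of the 10 genes in each library (vertical axis, TMM-scaled CPM on a log axis; points are libraries, bars the mean of 3). Thor alone is separated by more than a factor of 10 between tissues, at 925 to 1053 CPM in SG and 53.6 to 58.6 CPM in B-D, while Myc and InR overlap. Under library size alone the SG points of all genes would sit lower, and 8 of the 10 fold changes turn from above to below 0.

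Thor encodes the translational repressor at the end of the Tor branch. Its counts were 4431, 3893 and 4274 in the B-D libraries against 34992, 32619 and 31899 in the SG libraries. In the order of replicates 1, 2 and 3, which all values below follow, this was on the TMM scale 53.7, 58.6 and 53.6 CPM in B-D and 943, 1053 and 925 CPM in SG. The replicates lay close together in both tissues and far from the other tissue (log2 fold change 4.14 ± 0.11 SE, edgeR adjusted p = 2.8e-05). The change was larger than that of 95.7% of all genes tested. In unscaled CPM, which relates counts to the library total alone, Thor stood at 80.9 ± 4.26 for B-D and 666 ± 51.8 for SG (SD, n = 3), a log2 fold change of 3.04 that was also called. The fat body marker sum moved with tissue too. Within B-D it was highest in replicate 1 (4874 CPM) and lowest in replicate 2 (1174 CPM), where Thor was at 53.7 and 58.6 CPM. Within SG it was highest in replicate 1 (285855 CPM) and lowest in replicate 3 (192125 CPM), where Thor was at 943 and 925 CPM. The part of fat body RNA in the Thor difference was not tested. With SG replicate 1, 2 or 3 alone against B-D, Thor was still called higher.

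The 3 genes with level profiles nearest to that of Thor were found over the 6 libraries (smallest Euclidean distance between centred log2(CPM + 1) profiles). They were Strn-Mlck (distance 0.20, with means of 16.5 ± 0.798 CPM for B-D and 286 ± 29.4 for SG), CG32191 (0.25, with 0.926 ± 0.128 and 30.9 ± 2.27 CPM) and CG7589 (0.34, with 4.97 ± 0.439 and 97.1 ± 15.3 CPM; all SD, n = 3). The measure rests on 6 libraries of 2 tissues and is given as a description only.

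At the head of the pathway the receptor gene InR did not differ beyond the spread between replicates on the TMM scale. InR was at 83.7, 111 and 89.2 CPM in B-D and 92.3, 125 and 123 CPM in SG, so the tissues overlapped (0.26 ± 0.16 SE, edgeR adjusted p = 0.19). Replicate 2 held the highest InR level in both tissues. The adaptor gene chico was at 55.6, 61.0 and 61.4 CPM in B-D and 65.0, 71.6 and 70.2 CPM in SG. These values do not overlap, yet the difference was small and was not called (0.22 ± 0.08 SE, edgeR adjusted p = 0.051). Under library size alone both genes turned around and were called lower in SG, InR at -0.83 and chico at -0.88.

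Pi3K92E encodes the catalytic subunit of the PI3 kinase that InR activates. Its levels were 86.6, 90.5 and 79.8 CPM in B-D and 126, 142 and 135 CPM in SG. The SG libraries were all above the B-D libraries with TMM (0.65 ± 0.09 SE, edgeR adjusted p = 8.6e-04) and all below them without scaling, at 83.7 to 98.1 unscaled CPM in SG against 117 to 132 in B-D. With upper quartile scaling the fold change was 0.47, just under the threshold. Akt1, the kinase downstream, was the most abundant of the insulin branch per length. It stood at 169, 179 and 179 CPM in B-D and 212, 216 and 233 CPM in SG, with no overlap and a change too small to be called (0.32 ± 0.08 SE, edgeR adjusted p = 0.011; -0.77 and called lower under library size alone).

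foxo, the transcription factor that insulin signalling restrains, had the second-largest fold change of the 10 genes. It was at 37.4, 37.3 and 41.4 CPM in B-D and 70.2, 64.9 and 89.4 CPM in SG. All SG libraries lay above all B-D libraries and SG replicate 3 was the highest (0.95 ± 0.14 SE, edgeR adjusted p = 0.0012). Without scaling, the tissues overlapped, with 54.6, 54.6 and 60.7 unscaled CPM in B-D and 46.6, 44.7 and 62.6 in SG (log2 fold change -0.14, not called). The direction of foxo changed with the scale, but its place among all genes hardly did. Its fold change was above that of 73.6% of genes with TMM and 73.7% with library size alone.

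Rheb, the GTPase that activates Tor, had a larger fold change than Tor or S6k. Rheb was at 50.8, 49.8 and 55.9 CPM in B-D and 84.5, 87.8 and 101 CPM in SG, and the tissues did not overlap (0.80 ± 0.10 SE, edgeR adjusted p = 6.1e-04), while without scaling it was lower in all SG libraries (56.1 to 70.4 unscaled CPM) than in all B-D libraries (72.9 to 82.0). Tor, the kinase itself, was at 89.6, 89.5 and 83.4 CPM in B-D and 112, 106 and 98.0 CPM in SG. S6k, its substrate kinase, was at 114, 123 and 120 CPM in B-D and 148, 148 and 154 CPM in SG. Neither Tor (0.27 ± 0.08 SE, edgeR adjusted p = 0.026) nor S6k (0.34 ± 0.07 SE, edgeR adjusted p = 0.0067) reached the fold change threshold with TMM, and both were called lower under library size alone, at -0.83 and -0.76.

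Myc, the transcription factor of ribosome production, was the only 1 of the 10 genes with a fold change below 0 on the TMM scale. Its levels were 197, 211 and 248 CPM in B-D and 184, 153 and 259 CPM in SG, which overlapped (-0.13 ± 0.21 SE, edgeR adjusted p = 0.58). SG replicate 3 held the highest and SG replicate 2 the lowest Myc level of all 6 libraries, and the sign depended on them. Without SG replicate 2 the log2 fold change was 0.047, with SG replicate 3 alone 0.26 and without SG replicate 3 -0.35. Without scaling, Myc was lower in every SG library (105 to 181 unscaled CPM) than in any B-D library (287 to 363), and it was called lower at -1.23. Myc had the widest relative spread of the 10 genes within SG, and its standard error was the largest.

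**Figure D2:**
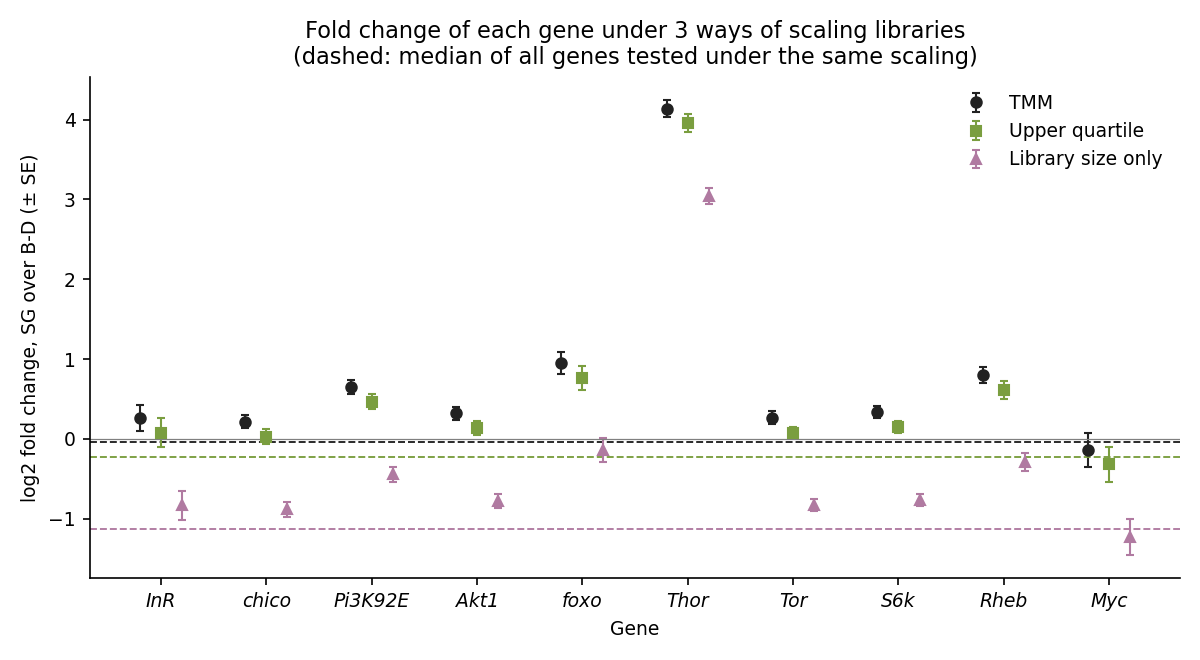
Log2 fold change of SG over B-D (vertical axis, bars are SE) for each gene with TMM, upper quartile and library size scaling, with dashed lines at the median of all genes tested under each scaling. The median moves from -0.03 with TMM to -0.22 with upper quartile and -1.13 with library size alone, and all 10 genes shift with it. Thor stays far above 0 under each, whereas InR, chico, Pi3K92E, Akt1, foxo, Tor, S6k and Rheb fall below 0 with library size alone.

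Because a change of scale moves all genes alike, the place of a gene among all genes is nearly free of it. Ranked by fold change among the 11369 genes tested, Myc was at the 47.7 percentile, chico at 56.4, InR at 57.6, Tor at 57.7, Akt1 at 59.3, S6k at 59.5, Pi3K92E at 67.1, Rheb at 70.5, foxo at 73.6 and Thor at 95.7. Under library size alone none of these moved by a full percentile. For 8 of the 10 genes every SG library exceeded every B-D library on the TMM scale, and InR and Myc were the exceptions. Over all genes this held for 39.9%, with 41.3% lower in SG and 81.2% separated either way. Unlike the ranks, this count depended on the scale. Without scaling Thor alone was higher in every SG library, foxo overlapped, and the rest were lower in every SG library. Relative to the median of all genes, the 8 separated with TMM ran from 0.25 (chico) to 4.17 (Thor) on the log2 scale.

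Levels of different genes were compared per exon length, as RPKM (TMM-scaled CPM per 1000 bases of exon). In B-D the order from high to low was Thor (73.3 ± 3.81 RPKM), Rheb (42.6 ± 2.68), Akt1 (36.0 ± 1.19), S6k (24.3 ± 0.982), Myc (23.8 ± 2.84), Pi3K92E (17.7 ± 1.12), chico (16.6 ± 0.910), Tor (10.96 ± 0.447), foxo (9.38 ± 0.568) and InR (8.31, range 7.37 to 9.72; the others SD, n = 3). The neighbours S6k and Myc, Pi3K92E and chico, and foxo and InR overlapped between libraries, and the other neighbours did not. In SG the order kept the same first 4 places, with Thor at 1290 ± 91.3 RPKM, Rheb at 74.3 ± 6.97, Akt1 between 43.4 and 47.6 and S6k at 30.7 ± 0.683. Thor exceeded Rheb, the next gene, by a factor of 1.72 in B-D and 17.4 in SG. Pi3K92E passed Myc in SG, at 27.8 ± 1.69 against 21.7 ± 5.95 RPKM, and foxo passed Tor, at 18.1 ± 3.13 against 13.2 ± 0.876 RPKM. The values of foxo and Tor did not overlap in SG, and those of Pi3K92E and Myc, Myc and chico, and chico and foxo did. InR was last in both tissues (9.97 ± 1.61 RPKM in SG).

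**Figure D3:**
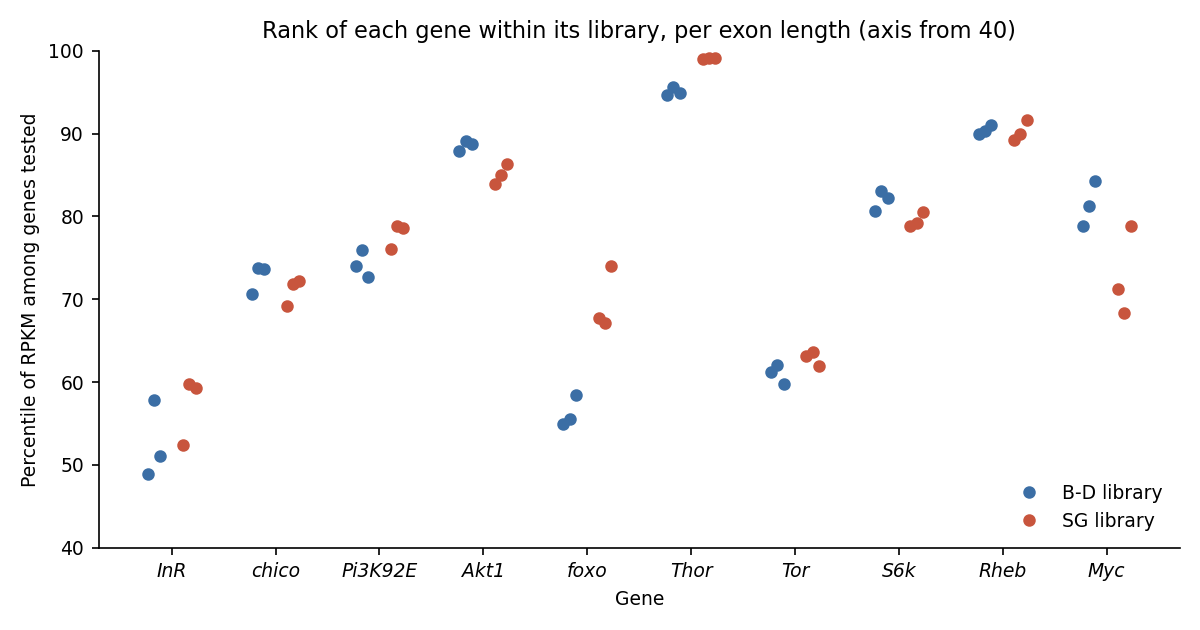
Percentile of each gene's RPKM among all genes tested, within each library (points; vertical axis starts at 40). Thor rises from 94.7 to 95.6 in B-D to between 99.0 and 99.1 in SG, foxo from 55.0 to 58.5 in B-D to 67.2 to 74.0 in SG, and Myc runs from 78.9 to 84.2 in B-D and from 68.3 to 78.8 in SG. The ranks use no scaling between libraries. Mean percentiles for B-D and SG were 74.3 and 77.8 for Pi3K92E, 52.6 and 57.2 for InR, and 61.0 and 62.9 for Tor. Rheb stayed level, at 90.4 and 90.3. Akt1 dropped from 88.6 to 85.1, S6k from 82.0 to 79.6 and chico from 72.7 to 71.1. The upward separation of Rheb, Akt1, S6k and chico with TMM is thus absent from this rank. InR, Tor, Rheb and chico overlapped between tissues in it.

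Within a library, each of these genes can also be set against its partner, and such a ratio does not depend on scaling. Thor counts relative to those of eIF4E1, the cap-binding protein that Thor binds, had a log2 ratio of -2.54, -2.33 and -2.54 in B-D and 0.98, 1.22 and 1.11 in SG. Thor reads were thus fewer than eIF4E1 reads in all B-D libraries and more numerous in all SG libraries (difference 3.57, two-sided exact permutation p = 0.1, adjusted over 4 ratios 0.13). InR over foxo, the receptor over the factor it restrains, was 1.16, 1.57 and 1.11 in B-D and 0.39, 0.94 and 0.46 in SG, lower in all SG libraries (difference -0.68, exact permutation p = 0.1, adjusted 0.13). Rheb over gig, the gene of the Gigas (Tsc2) protein that inactivates Rheb, was -0.02, -0.02 and 0.20 in B-D and 0.45, 0.56 and 0.83 in SG, higher in all SG libraries (difference 0.56, exact permutation p = 0.1, adjusted 0.13). Myc over Mnt, a repressor that competes with Myc for the partner Max, was 2.22, 2.16 and 2.44 in B-D and 2.25, 1.77 and 2.20 in SG, which overlapped (difference -0.20, exact permutation p = 0.5, adjusted 0.5). With 3 against 3 libraries a two-sided exact test cannot give a p below 0.1, so none of these ratios could pass 0.05.

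**Figure D4:**
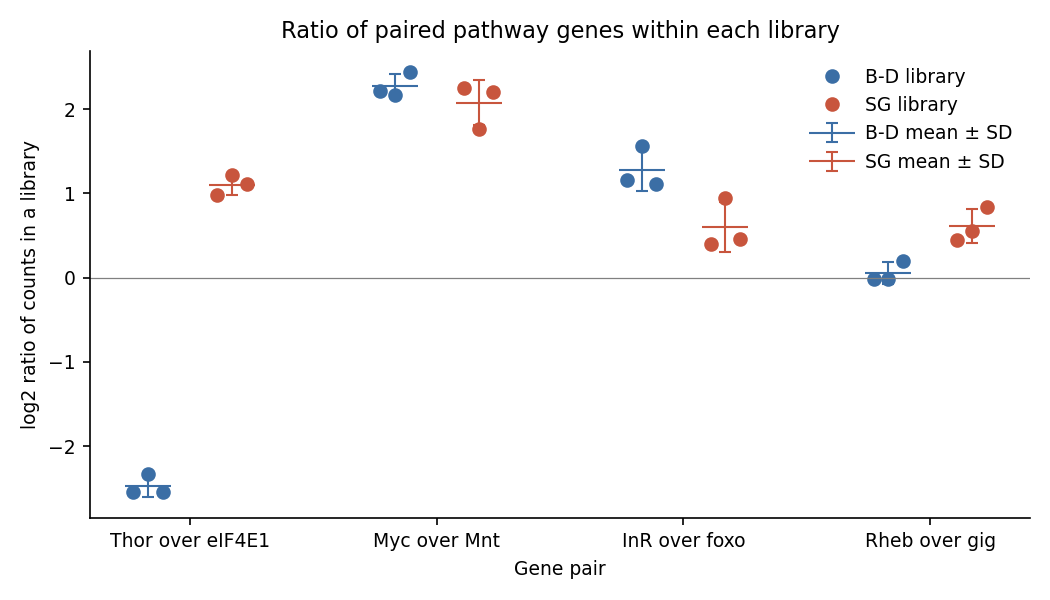
Log2 ratio of counts of 2 pathway genes in the same library (vertical axis; points are libraries, bars the mean ± SD of 3). The tissues are apart by 3.57 for Thor over eIF4E1, by 0.56 for Rheb over gig and by -0.68 for InR over foxo, and overlap for Myc over Mnt.

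The 10 genes can also be set against each other. Of the 36 pairs that can be formed without Thor, the ratio within a library separated the tissues for 21. The share among pairs of other genes was not computed. Of single genes tested, 81.2% separated the tissues with TMM, but that is a different measure and no background for ratios of pairs. The count is therefore descriptive only. The largest shift of the 36 was foxo against Myc, higher by 1.10 on the log2 scale in SG than in B-D. InR against Tor (-0.01) and Akt1 against S6k (-0.01) differed by next to nothing and overlapped. All 9 pairs with Thor separated the tissues, which restates the difference of Thor itself. Thor was higher in SG against its partner by 3.20 (foxo) to 4.30 (Myc) on the log2 scale.

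The other genes of the pathway were grouped in 7 lists, which hold 101 further genes of the count table, of which 97 were tested. The lists were chosen with results of these data known. With TMM 33 of them were called higher in SG, 16 lower and 48 neither (median log2 fold change 0.30), against 34.5% higher and 35.3% lower of all genes. Under library size alone 4 were higher and 67 lower (median -0.80), against 14.0% and 62.5% of all genes. Counts of each list below are to be read beside these shares of all genes.

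**Figure D5:**
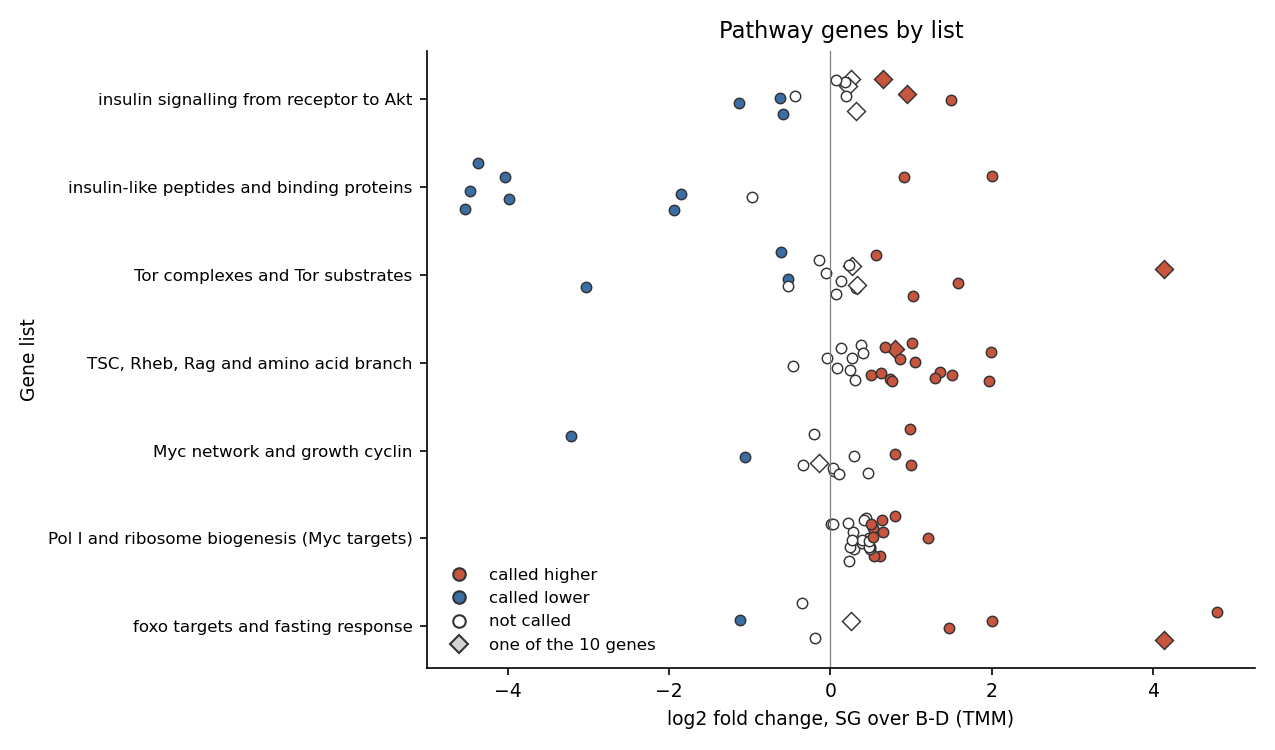
Log2 fold change of SG over B-D with TMM (horizontal axis) for the tested genes of each pathway list (vertical axis), filled where called higher or lower, with diamonds for the 10 core genes. The list of insulin-like peptides, binding proteins and a receptor gene lies mostly far to the left, with 7 of 10 called lower. The TSC, Rheb, Rag and amino acid branch lies mostly to the right. Of its 22 genes, 13 were called higher and 0 lower, against 34.5% and 35.3% of all genes. Under library size alone those 22 have 2 higher and 10 lower.

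Regulators around InR, PI3 kinase and Akt did not move one way. Of 8 further genes of this branch, 3 were called lower and 1 higher (0 higher and 7 lower with library size alone). The adaptor genes dock, whose protein binds InR, and Lnk fell from 131 ± 6.77 and 52.1 ± 3.73 CPM to 59.5 ± 5.17 and 34.6 ± 1.22 CPM (SD, n = 3; edgeR adjusted p = 1.5e-04 and 0.0012). trbl, a pseudokinase gene whose product binds and inhibits Akt in flies, rose from 19.4 ± 1.62 to 54.7 ± 7.25 CPM (1.49 ± 0.13 SE, edgeR adjusted p = 1.7e-04), and was at 0.40 and not called with library size alone.

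Ligands and secreted binding proteins, with a receptor gene listed among them, had the lowest median of the 7 lists (-2.96). Of 10 tested, 7 were called lower and 2 higher (8 and 1 with library size alone). Ilp6, an insulin-like peptide made mainly in the fat body, was at 11.2, 10.5 and 11.7 CPM in B-D and 38.0, 35.5 and 60.5 CPM in SG (2.00 ± 0.23 SE, edgeR adjusted p = 4.1e-04). It is also on the fat body marker list, which was higher in SG as a whole. ImpL2, a secreted antagonist of the insulin-like peptides, was higher with TMM (0.92 ± 0.21 SE, edgeR adjusted p = 0.0070) but at -0.18 with library size alone, and 61.9% of its exon sequence is shared with another gene of the same strand, so its counts are uncertain. Sdr, a secreted decoy of the receptor (-4.37 ± 0.58 SE), conv, which forms a complex with ImpL2 (-1.93 ± 0.25 SE), and Ilp7 (-1.86 ± 0.22 SE) were lower, with edgeR adjusted p between 5.1e-04 and 8.0e-04. The peptides of the brain's insulin-producing cells, Ilp2, Ilp3 and Ilp5, summed to 191 to 198 CPM in B-D and to 12.5, 0.065 and 13.8 CPM in SG replicates 1 to 3. Neuron markers in SG were lowest in replicate 2 as well.

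Tor complex subunits and Tor substrates did not move one way. In this list of 13 further genes, 3 were called higher and 3 lower (0 and 11 with library size alone). eIF4G1, the scaffold that Thor displaces from eIF4E, rose from 629 ± 18.4 to 1885 ± 105 CPM (1.58 ± 0.10 SE, edgeR adjusted p = 5.9e-05; 0.49 and not called with library size alone). eIF4E1 (0.56 ± 0.09 SE) and RpS6, the ribosomal protein that S6k phosphorylates (1.02 ± 0.18 SE), were higher with TMM and at -0.54 and -0.080 with library size alone. With upper quartile scaling eIF4E1 was at 0.37, under the threshold. chrb, whose product restrains Tor, fell from 301 ± 26.8 to 36.7 ± 16.5 CPM (-3.03 ± 0.35 SE, edgeR adjusted p = 4.4e-04), and rictor, of Tor complex 2 (-0.53), and PRAS40, a Tor complex 1 inhibitor (-0.61), fell slightly. The threshold was missed for rictor without B-D replicate 2 (-0.43) or SG replicate 3 (-0.50), and for PRAS40 without SG replicate 2 (-0.49).

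In the branch of TSC, Rag and amino acid genes around Rheb and Tor, 13 of 22 were called higher with TMM and 0 lower. Over all genes tested these shares were 34.5% and 35.3%. Sesn, which encodes Sestrin, an inhibitor of Tor complex 1, was at 31.0, 27.1 and 27.3 CPM in B-D and 111, 112 and 111 CPM in SG (1.97 ± 0.09 SE, edgeR adjusted p = 3.1e-05), but 65.1% of its exon sequence is shared with a gene of the same strand. The amino acid transporter gene slif rose from 4.02 ± 0.234 to 16.1 ± 1.70 CPM (2.00 ± 0.13 SE, edgeR adjusted p = 7.4e-05) and RagA-B, a GTPase that brings Tor to the lysosome, from 17.4 ± 1.31 to 44.9 ± 0.584 CPM (1.36 ± 0.09 SE, edgeR adjusted p = 6.6e-05). With library size alone 2 of the 22 were called higher and 10 lower, the list median went from 0.65 to -0.45, and RagA-B was at 0.27 and not called.

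Genes of the Myc network and the growth cyclin CycD did not move one way. Of 12 further genes of this list, 3 were called higher, 2 lower and 7 neither (0 and 9 with library size alone). Max, the obligate partner of Myc, was at 28.2, 28.2 and 30.8 CPM in B-D and 50.1, 52.3 and 49.9 CPM in SG (0.81 ± 0.08 SE, edgeR adjusted p = 2.5e-04; -0.29 with library size alone), with 30.1% of its exons under genes of the other strand. Mondo (1.01 ± 0.15 SE) and its partner bigmax (0.98 ± 0.14 SE), which sense sugar, were also higher with TMM and at -0.095 and -0.12 with library size alone. brat, a translational repressor that limits growth of neuroblast progeny, fell from 737 ± 54.0 to 79.6 ± 24.1 CPM (-3.21 ± 0.25 SE, edgeR adjusted p = 1.2e-04). Cdk4, the partner of the growth cyclin CycD, fell from 28.8 ± 1.92 to 13.9 ± 0.846 CPM (-1.06 ± 0.10 SE, edgeR adjusted p = 1.9e-04). The 6 neuroblast markers moved with brat, with sums of 6024 to 7937 CPM in B-D and 37.7 to 564 CPM in SG and all 6 called lower, and their part in the value of brat was not tested.

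Genes for RNA polymerase I and ribosome assembly, many of them known Myc targets, differed between SG libraries. Of 27 tested, 9 were called higher with TMM and 0 lower (median 0.48), against 34.5% and 35.3% of all genes. The share called higher was thus near the background. Among the 9 were Nmd3, for export of the large subunit (1.22 ± 0.18 SE, edgeR adjusted p = 0.0013), Non1 (0.50 ± 0.11 SE) and RpLP0-like (0.80 ± 0.19 SE). Non1 was just past the threshold and missed it by DESeq2 (0.49), by limma-voom (0.496) and with the replicate number as a block (0.496). It also missed it without the low-count filter (0.45), with upper quartile scaling (0.31) and without SG replicate 1 (0.44). With library size alone 0 were higher and 19 lower, with Nmd3 at 0.12, Non1 at -0.60 and RpLP0-like at -0.30, and with upper quartile scaling 2 were higher. All 27 had their lowest SG value in replicate 3, against 33.9% of all genes tested, a pattern seen after the values were known. Fib, a nucleolar methyltransferase gene chosen here after its values were seen, was at 68.5, 61.5 and 31.0 CPM in SG replicates 1 to 3 and 33.5 to 46.5 CPM in B-D. Myc itself was highest in SG replicate 3. Without SG replicate 3 the number called higher was 21, and without SG replicate 1 it was 5. With SG replicate 3 alone against B-D, 1 was higher and 1 lower.

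Foxo targets and genes of the fasting response did not move one way. Of 6 tested besides Thor and InR, 3 were higher and 1 lower (2 and 3 with library size alone). Pepck2, an enzyme gene of gluconeogenesis, was at 5.23, 2.80 and 3.44 CPM in B-D and 157, 85.8 and 76.6 CPM in SG (4.80 ± 0.41 SE, edgeR adjusted p = 1.5e-04). The fat body marker sum ranked the replicates of each tissue in the same order. It was 4874, 1174 and 2033 CPM in B-D and 285855, 232975 and 192125 CPM in SG. The part of fat body RNA in the value of Pepck2 was not tested. bmm, the gene of a triglyceride lipase, rose from 24.3 ± 0.928 to 67.7 ± 15.2 CPM (1.48 ± 0.17 SE, edgeR adjusted p = 4.3e-04; 0.37 and not called with library size alone) and is on the fat body list, as is Ilp6. GlyP, the glycogen phosphorylase gene, fell from 552 ± 18.6 to 255 ± 25.5 CPM (-1.12 ± 0.11 SE, edgeR adjusted p = 2.1e-04).

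Each of the 10 core genes is annotated as protein coding. In Release 6 coordinates Thor lies on 2L from 3478434 to 3479612 with 755 exon bases, foxo on 3R from 14056945 to 14087978, Rheb on 3R from 5568921 to 5570491, Pi3K92E on 3R from 20628972 to 20634732, InR on 3R from 21570248 to 21619321, and Myc on X from 3373159 to 3391697. Exon overlap with other genes was found for chico and Myc only. Of the Myc exons 20.3% lie under lncRNA:CR44999 on the same strand and 40.9% under CG12535 on the other strand. These neighbours held 3 to 14 and 10 to 27 counts, beside 4744 or more for Myc in every library. For chico 10.6% lies under an antisense RNA with 0 to 2 counts. Reads left uncounted for matching several genes would be missing from both neighbours, so these low counts cannot show whether any were. The levels of Myc and chico per exon length, and their places in the order, are uncertain to that extent.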

How the data were processed

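RNA was measured in 3 SG and 3 B-D libraries. Per the labels and the study's methods, stranded poly-A libraries were sequenced. The submitters' processing notes name FastQC 0.11.5, STAR 2.6.1a and featureCounts, which assigned reads to exons on the Release 6 genome. Whether counting used strand, and how reads with several matches were treated, is not given in the sources used here. The deposited values are raw counts, whole numbers per gene, and an exon length per gene. The authors' own table of fold changes and p-values was not used. Every row carried a gene identifier. Groups and replicate numbers came from sample titles. The study calls the replicates biological and took both tissues from the same larvae, so same-numbered libraries were read as pairs, as the numbering in the titles implies. Deviations of same-numbered libraries from their tissue means correlated at 0.33, 0.077 and 0.22, and SG replicate 3 correlated best with B-D replicate 2. The tests had no replicate term, and the fit with the replicate number as a block was an alternative. No pair of libraries of a tissue agreed within counting noise.

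All genes were tested with edgeR 4.0.16 (R 4.3.3, filterByExpr, TMM, quasi-likelihood F test, tissue as the only term), with Benjamini-Hochberg adjustment over 11369 genes. The SE is that of the fit. A run of the same fit on simulated counts had few changed genes, in both directions, so it could not test the scaling. Ratios used counts plus 0.5. Overlaps and positions came from the Ensembl gene annotation of Release 6. DESeq2 1.42.0, limma-voom (limma 3.58.1), other scalings, no low-count filter, a replicate block and left-out libraries were alternatives, and SG replicates 1 and 3 alone were added after seeing the data. The 10 genes and all lists were chosen with earlier results of these data known. Named were all 10 genes and, per list, the 3 called genes with the smallest p in each direction. The result for 1 of these is not reported here. Of 103 further listed genes 101 were matched. Intervals of counting error would cover sequenced fragments, not molecules.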

Additional observations from a re-analysis of the deposited data

How the results depend on the processing

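Scaling decided most directions. With library size as the only scale, 1588 genes were called higher and 7111 lower, 1 of the 10 core genes was higher and 6 were lower, and 4 of the other pathway genes were higher and 67 lower. Fold changes turned below 0 for InR (-0.83), chico (-0.88), Pi3K92E (-0.44), Akt1 (-0.77), foxo (-0.14), Tor (-0.83), S6k (-0.76), Rheb (-0.29), ImpL2 (-0.18), Max (-0.29), Mondo (-0.095), Non1 (-0.60), RpLP0-like (-0.30), RpS6 (-0.080), bigmax (-0.12) and eIF4E1 (-0.54). This scaling moved the median of all genes by -1.10. With upper quartile scaling 3 core genes were called higher, and Pi3K92E was at 0.47. The 4 core genes called higher with TMM were called by DESeq2, by limma-voom, without the low-count filter, with each library left out and with each SG library alone, where the lone library is assumed to vary like the others. The log2 fold change of Myc was between -0.35 and 0.047 with a library left out and 0.26 with SG replicate 3 alone, and that of InR was -0.0099 with SG replicate 1 alone. Counts of other pathway genes ranged from 28 to 45 higher and 15 to 19 lower with a library left out. With a replicate block, which pairs the tissues of same-numbered replicates, 4 core genes were called higher and 0 lower, and 31 other pathway genes were higher and 17 lower. Non1 missed the threshold under it, no other named gene changed its call, and the paired ratios kept their values (exact sign-flip p = 0.25 or 0.5, where 0.25 is the smallest possible). A pseudocount of 0 or 5 left the 4 ratios within 0.01. Changes under 0.5 on the log2 scale were not callable at any depth by the rule used.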
